A study of Mus musculus with 36 samples.

Results

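The kinase inhibitor Nec-1s was added to primary mouse astrocytes that received TNF, a Smac mimetic and the caspase inhibitor zVAD, and the transcriptomes with and without the inhibitor were compared. TNF with Smac mimetic and zVAD is written T/S/Z, and the same mixture with Nec-1s is written T/S/Z/N. The comparison held 6 of the 36 libraries of the series, 3 of T/S/Z/N and 3 of T/S/Z, with 1 pair for each replicate number. It covered 13842 of the 14551 genes in the astrocyte table, those with a deposited log2 value of at least 1 in 3 or more of its 12 libraries. The other 6 astrocyte libraries, 3 with the vehicle DMSO and 3 with Nec-1s alone, gave the level without stimulation and the effect of the inhibitor on unstimulated cells.

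C57BL/6 pups of 2 to 4 days of age supplied the brains, which were pooled and grown as mixed glia for 12 days. Microglia were removed by CD11b selection, astrocytes were taken by a second positive selection from the remaining cells, and after a rest of 24 to 48 h the astrocytes were treated for 4 h. No allele or transgene distinguished the groups, and the T/S/Z and T/S/Z/N cultures shared TNF, Smac mimetic and zVAD, so that Nec-1s was the only labelled difference between them. Polyadenylated RNA was sequenced with a strand-specific protocol. The labels number the replicates from 1 to 3 but do not say which litter or culture each number was, so the p-values measure the spread between these libraries.

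RIPK1 is a kinase that joins the signalling complexes formed at TNF receptors. As a scaffold it helps to activate NF-kB and MAP kinases, and as a kinase it can start apoptosis through caspase-8 or, when caspases are blocked and IAP proteins are lost, necroptosis through RIPK3 and MLKL. Nec-1s blocks the kinase and leaves the scaffold in place. In astrocytes, TNF and IL-1 are known to raise chemokines, acute-phase proteins and interferon-stimulated genes.

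Levels are given as deposited, as log2(FPKM + 1), where FPKM is the fragment count relative to transcript length and sequencing depth, scaled by the authors to a common 75th percentile. Differences are on that log2 scale and understate the change of genes with low levels. They were tested with limma's moderated test with the replicate number as a block, and a gene is said to have risen or fallen with Nec-1s where it differed by more than 1.5-fold with an adjusted p under 0.05 (Benjamini-Hochberg, over all genes tested). Total counts were not part of the table. The steps between low values matched several depths that are multiples of one another, so the depth was not settled and no counting interval was computed.

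Transcripts of the kinase itself were measured first. Ripk1 stood at 4.40, 4.38 and 4.55 in T/S/Z and at 4.63, 4.59 and 4.69 in T/S/Z/N, a difference of 0.19 (SE 0.08, adjusted p = 0.171). An inhibitor of the protein need not alter its mRNA, so this gene does not check the labels. Ripk3 (0.36, adjusted p = 0.0655) and Mlkl (-0.22, adjusted p = 0.221), the kinase and the membrane-disrupting protein of necroptosis, also missed the threshold. The cells carried the astrocyte markers at high levels. Gfap, the intermediate filament of astrocytes, averaged 1757 ± 88.3 FPKM in T/S/Z and 1609 ± 27.6 in T/S/Z/N (SD, n = 3), and the 12 astrocyte markers summed to 3202 to 3407 FPKM in T/S/Z and 3206 to 3254 in T/S/Z/N. None of the 12 passed the test between these groups.

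The 12 astrocyte libraries separated by stimulus on the first principal component, which carried 67.6% of the variance, and T/S/Z/N lay between T/S/Z and the unstimulated libraries. The T/S/Z/N libraries fell close together, at 19.5 to 20.5 on the first and -16.5 to -12.8 on the second component (11.5%). The T/S/Z libraries agreed on the first, at 36.4 to 37.5, but spread over the second from 25.3 in replicate 1 through 12.1 in replicate 2 to -4.50 in replicate 3. By pair, 1529 genes differed by more than 1.5-fold within pair 1, 734 within pair 2 and 618 within pair 3.

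**Figure D1:**
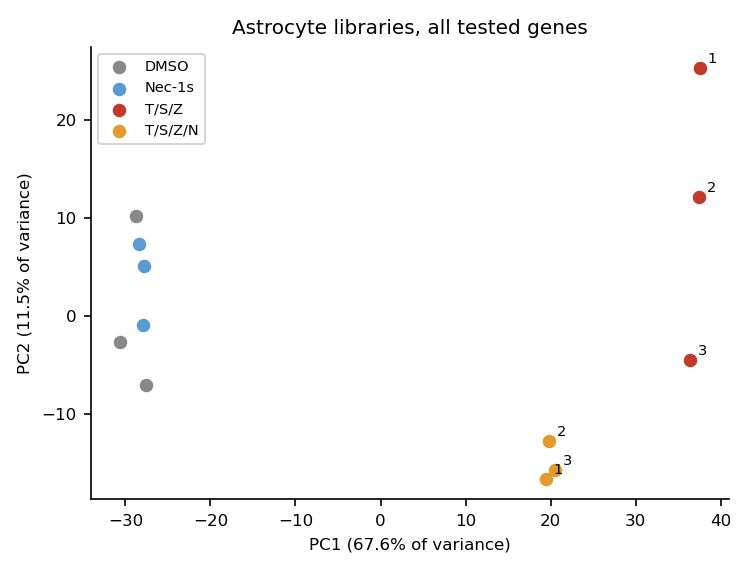
Scores of the 12 astrocyte libraries on the first (x axis) and second (y axis) principal components of all tested genes, with replicate numbers beside T/S/Z and T/S/Z/N points. The T/S/Z/N libraries lie at 19.5 to 20.5 on PC1, between T/S/Z at 36.4 to 37.5 and the unstimulated libraries at -30.6 to -27.6, and the T/S/Z libraries spread along PC2 from 25.3 to -4.50.

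With Nec-1s, 429 genes (3.10% of those tested) changed, 209 higher (1.51%) and 220 lower (1.59%). All 429 moved the same way in 3 of 3 pairs, and the 3 T/S/Z/N libraries did not overlap the 3 T/S/Z libraries for 424 of them, against 35.1% of all genes tested. The median difference over all genes was 0.03. The changes were moderate: 45 of the lower and 62 of the higher genes moved more than 2-fold, and 7 and 4 more than 4-fold. Of the 429 genes, 410 were protein-coding. The lower genes had a median level of 2.52 in DMSO, 4.33 in T/S/Z and 3.45 in T/S/Z/N, whereas the higher genes had medians of 3.13, 2.03 and 3.07 in the same order. For comparison, 15.4% of genes were called between T/S/Z and DMSO (6.39% higher and 8.99% lower) and 9.08% between T/S/Z/N and DMSO (4.36% higher and 4.72% lower), contrasts that share libraries with this one and with each other. The count depended on the pair left out, being 322 without pair 1, 274 without pair 2 and 761 without pair 3. With each gene's own variance and no sharing of information between genes, 3 genes passed.

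**Figure D2:**
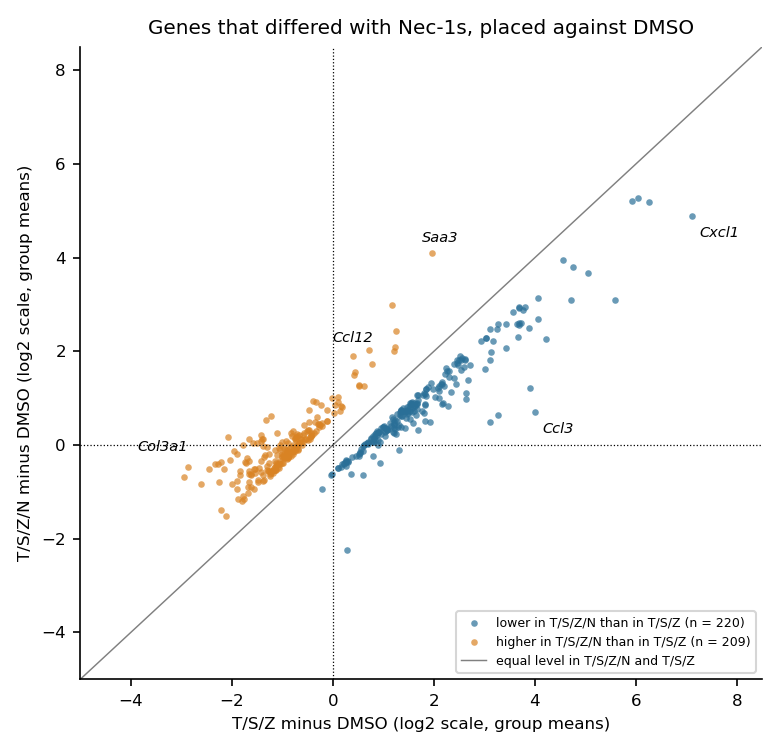
Difference of T/S/Z from DMSO (x axis) against difference of T/S/Z/N from DMSO (y axis), both as group means on the log2 scale, for the 220 genes that were lower (blue) and the 209 that were higher (orange) in T/S/Z/N than in T/S/Z. Both axes use the same DMSO libraries, and the genes were picked by a comparison that uses the T/S/Z libraries of the x axis. Blue points lie below and orange points above the line of equal levels by construction, most blue points are to the right of 0 and most orange points to the left, and Saa3 and Ccl12 are orange points to the right of 0.

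Chemokines and IL-1 cytokines fell furthest. Ccl3 (ENSMUSG00000000982, chr11:83647844-83649355, GRCm38), a chemokine that attracts monocytes and T cells, stood at 4.41, 4.39 and 4.18 in T/S/Z and at 1.29, 0.77 and 1.04 in T/S/Z/N. It fell by 3.29 on the log2 scale (SE 0.13, adjusted p = 4e-05), from 19.1 ± 1.72 to 1.07 ± 0.371 FPKM (SD, n = 3), and the DMSO libraries lay at 0.38, 0.08 and 0.49. Its neighbour Ccl4 (ENSMUSG00000018930, chr11:83662584-83664683), a related chemokine, stood at 3.89, 3.79 and 3.53 without and at 1.03, 1.11 and 1.20 with the inhibitor and fell by 2.63 (SE 0.12, adjusted p = 9.39e-05). The T/S/Z/N libraries of both genes lay above the DMSO libraries and far below every T/S/Z library. Il1b (ENSMUSG00000027398, chr2:129364570-129371139), which encodes the secreted cytokine IL-1β, read 4.18, 4.47 and 4.34 in T/S/Z and 1.64, 1.52 and 1.77 in T/S/Z/N and fell by 2.69 (SE 0.11, adjusted p = 6.58e-05). Il1a (ENSMUSG00000027399, chr2:129299610-129309972), encoding the alarmin IL-1α, read 3.09, 3.34 and 3.30 and 0.58, 0.67 and 0.61 and fell by 2.63 (SE 0.10, adjusted p = 4e-05). The deposited annotation marks 47 of the 119 genes named by rule as confounded without defining the term, among them both IL-1 genes, Csf2, Col3a1, Col1a2, H19 and Igf2.

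The neutrophil chemokines Cxcl1 and Cxcl2 fell but stayed far above the unstimulated level. Cxcl2 (ENSMUSG00000058427, chr5:90903871-90905938) read 5.96, 6.05 and 6.12 in T/S/Z and 3.48, 3.56 and 3.65 in T/S/Z/N, with DMSO at 0.52, 0.26 and 0.60, and fell by 2.48 (SE 0.08, adjusted p = 4e-05). Cxcl1, like Cxcl2 a CXCR2 ligand, read 7.25, 7.51 and 7.56 against 5.08, 5.28 and 5.29 and fell by 2.22 (SE 0.08, adjusted p = 4e-05). In FPKM, Cxcl1 was 173 ± 19.9 in T/S/Z and 36.2 ± 3.04 in T/S/Z/N, with DMSO at 0.261 ± 0.0453 (SD, n = 3). Cxcl3 fell by 1.45, to 0.83 above DMSO, and Ccl20, the CCR6 ligand, by 1.37. Of the 20 chemokines tested, 10 fell and 2 rose, against 1.59% and 1.51% of all genes, with a median difference of -0.64. The other falls were Ccl5 (-1.06), Cxcl11 (-0.77), Cxcl16 (-0.75) and Ccl9 (-0.72). The most abundant chemokines changed little in proportion: Ccl2 averaged 11.81 in T/S/Z and 11.27 in T/S/Z/N (difference -0.54), Cxcl10 11.11 and 10.56 (difference -0.55), and both missed the fold-change minimum with adjusted p-values of 0.0239 and 0.033.

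A pair of chemokines moved the other way. Ccl12, a CCR2 ligand, stood at 1.35, 1.29 and 1.70 in DMSO, at 1.72, 1.75 and 2.04 in T/S/Z and at 3.45, 3.32 and 3.30 in T/S/Z/N. It rose by 1.52 with Nec-1s (SE 0.12, adjusted p = 0.000752), and every T/S/Z/N library lay above every other library. Ccl8 read 1.38, 1.68 and 1.39 and 2.66, 2.61 and 2.52 and rose by 1.11 (SE 0.11, adjusted p = 0.00194).

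**Figure D3:**
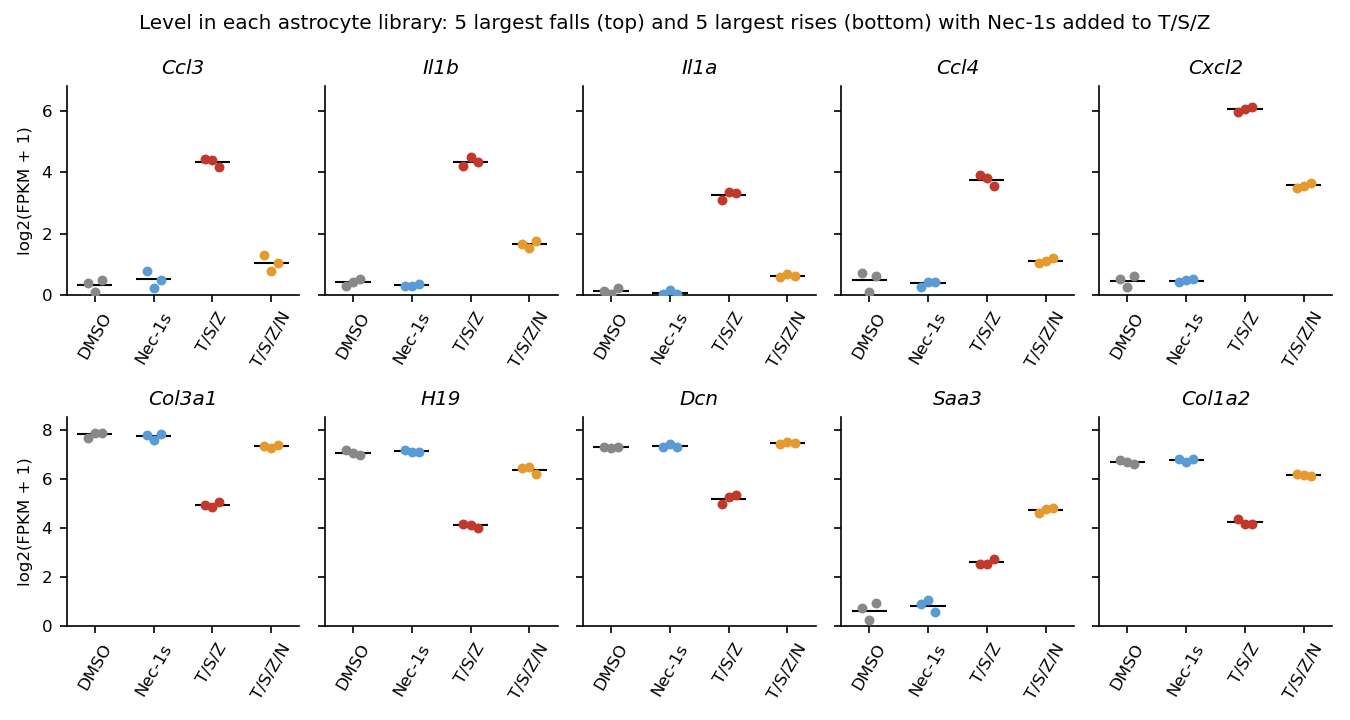
Level in each of the 12 astrocyte libraries, as log2(FPKM + 1) on the y axis, for the 5 genes with the largest falls (top) and the 5 with the largest rises (bottom), by treatment on the x axis. Points are libraries and bars are means of 3. The T/S/Z/N points of Ccl3 sit at 0.77 to 1.29 against 4.18 to 4.41 in T/S/Z, and those of Col3a1 at 7.28 to 7.39 against 4.86 to 5.05.

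Because the falls were led by genes that NF-kB is known to drive, the bases just upstream of 6 starts are printed, taken from RefSeq promoters of GRCm38.p6. They run from 170 bases before the start to the base before it, 5′ to 3′ in the direction of the gene, with each match to the NF-kB consensus in capitals. RefSeq starts can differ from those of the deposited annotation. They lie at chr5:90891075-90891244 on the plus strand for Cxcl1, chr5:90903729-90903898 on the plus strand for Cxcl2, chr5:90785931-90786100 on the plus strand for Cxcl3, chr1:83116596-83116765 on the plus strand for Ccl20, chr5:92348890-92349059 on the minus strand for Cxcl10 and chr6:65590228-65590397 on the plus strand for Tnip3.
Cxcl1: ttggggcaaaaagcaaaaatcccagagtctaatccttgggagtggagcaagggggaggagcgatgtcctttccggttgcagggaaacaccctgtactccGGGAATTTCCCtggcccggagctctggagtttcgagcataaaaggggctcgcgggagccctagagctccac
Cxcl2: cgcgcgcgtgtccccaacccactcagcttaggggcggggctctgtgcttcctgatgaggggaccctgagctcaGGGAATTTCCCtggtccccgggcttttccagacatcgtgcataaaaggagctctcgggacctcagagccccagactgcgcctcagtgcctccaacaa
Cxcl3: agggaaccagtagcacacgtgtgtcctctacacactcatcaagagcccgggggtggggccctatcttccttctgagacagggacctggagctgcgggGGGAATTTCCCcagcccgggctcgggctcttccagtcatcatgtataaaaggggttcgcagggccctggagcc
Ccl20: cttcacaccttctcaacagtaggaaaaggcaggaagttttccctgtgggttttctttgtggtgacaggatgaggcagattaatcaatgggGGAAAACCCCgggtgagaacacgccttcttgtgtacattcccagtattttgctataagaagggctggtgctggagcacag
Cxcl10: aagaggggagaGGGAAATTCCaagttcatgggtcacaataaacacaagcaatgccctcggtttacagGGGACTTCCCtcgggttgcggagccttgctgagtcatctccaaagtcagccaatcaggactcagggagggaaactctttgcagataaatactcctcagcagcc
Tnip3: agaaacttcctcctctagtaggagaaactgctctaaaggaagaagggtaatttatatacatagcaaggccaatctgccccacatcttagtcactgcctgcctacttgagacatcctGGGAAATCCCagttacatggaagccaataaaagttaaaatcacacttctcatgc
In Cxcl1, Cxcl2 and Cxcl3, the capitals hold 2 overlapping matches, one on each strand, which begin at -71, -97 and -73 bases from the start. These 3 genes fell, as did Ccl20 with 1 match at -80. Cxcl10, which holds 2 separate matches at -159 and -103, missed the fold-change minimum, and Tnip3, with a match at -54, rose. Cxcl10 passed without pair 3 (-0.62). The 6 were picked by hand and all hold a match, so they show nothing of how often it occurs.

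Over windows from 250 bases before to 50 bases after the start, searched on both strands, the NF-kB consensus occurred in 13.6% of 213 windows of genes that fell and in 6.90% of 174 windows of genes that rose. The share was 5.31% of the 13501 windows of all genes tested and 4.51% of all 32851 windows. The AP-1 motif TGANTCA occurred in 14.6% of windows of lower genes, 8.05% of higher genes, 5.34% of tested genes and 7.81% of all windows. TATAAA occurred in 16.0%, 16.7%, 7.46% and 13.6% in the same order. The windows covered 158 of the 220 lower and 135 of the 209 higher genes, and these shares are descriptions of letters in the windows.

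Among 33 cytokines and growth factors tested, 15 fell and 0 rose, against 1.59% and 1.51% of all genes (median -0.38). After the IL-1 genes, Csf2, the granulocyte-macrophage growth factor GM-CSF, fell most, from 4.34, 4.54 and 4.18 to 2.46, 2.37 and 2.38, a change of -1.95 (SE 0.11, adjusted p = 0.000174). Tnf, the gene of the stimulating cytokine itself, read 2.81, 3.10 and 2.55 in T/S/Z and 1.11, 1.09 and 1.33 in T/S/Z/N and fell by 1.65 (SE 0.15, adjusted p = 0.00165). Further falls included Tslp (-1.13), Pdgfb (-1.08), Lif (-1.07), Csf3 (-1.02), Osm (-0.91), Il6 (-0.86), Il11 (-0.84), Ereg (-0.68), Il34 (-0.64) and Pdgfa (-0.62). Il6 read 3.48, 3.92 and 4.12 without and 2.78, 3.27 and 2.91 with Nec-1s, groups that did not overlap but stood closer than those of Tnf. The members below the threshold included Il33 (-0.33), Csf1 (-0.33), Hbegf (-0.38) and Il15 (-0.18).

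Among the 15 largest falls were 4 genes in none of the lists described so far or below. Acod1, which makes itaconate, read 4.93, 4.71 and 4.77 in T/S/Z and 3.19, 3.27 and 3.11 in T/S/Z/N and fell by 1.62 (SE 0.10, adjusted p = 0.000258). Clec4e, the lectin receptor Mincle, fell by 1.52 from a mean of 3.31 ± 0.27 to 1.79 ± 0.19 (SD, n = 3). Ifi202b, an interferon-inducible DNA-binding protein, fell by 1.43. Rgs1, a regulator of G-protein signalling, fell by 1.42 from 1.75, 2.55 and 2.15 to 0.82, 0.70 and 0.68, which is below its DMSO mean of 0.83.

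NF-kB subunits and feedback genes fell in 8 of 28 cases and rose in 1, against 1.59% and 1.51% of all genes (median -0.38), and 24 of 28 estimates were below 0, against 45.2% of all genes tested (54.8% were above 0). Nfkbiz, the atypical IκB protein that switches on secondary response genes, read 4.85, 4.82 and 4.93 and 3.51, 3.42 and 3.47 and fell by 1.40 (SE 0.09, adjusted p = 0.000276). Zc3h12a, an RNase that degrades cytokine mRNA, fell by 1.13 (SE 0.13, adjusted p = 0.00425). The remaining falls were Nfkbib (-0.86), Map3k8 (-0.77), Nfkbid (-0.74), Tnfaip2 (-0.72), Rela (-0.65) and Nfkbia (-0.60). Nfkbia, the classical inhibitor IκBα, read 8.77, 8.68 and 8.38 in T/S/Z and 7.93, 8.06 and 8.03 in T/S/Z/N, with DMSO at 4.31, 3.82 and 4.06. Tnfaip3, which encodes the ubiquitin-editing enzyme A20, averaged 5.42 ± 0.05 and 5.06 ± 0.03, a difference of -0.37 that missed the fold-change minimum. Tnip3, a partner of A20, rose by 1.31 (SE 0.10, adjusted p = 0.000673), from 1.16, 1.30 and 1.32 to 2.55, 2.53 and 2.64. Nfkbia missed the fold-change minimum with quantile normalization (-0.57) and did not pass without pair 1 or pair 2. The number of falls in this group was 6 without pair 1, 6 without pair 2 and 10 without pair 3.

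Immediate early genes split. Of 31 tested, 5 fell and 4 rose, beside 1.59% and 1.51% of all genes. Ier3, an early survival gene, fell from 7.54, 7.45 and 7.14 to 6.00, 6.22 and 6.08 (-1.28, SE 0.11, adjusted p = 0.0011), and the others were Fosl1, an AP-1 subunit (-0.94), Myc (-0.82), the stress gene Gadd45b (-0.73) and Csrnp1 (-0.66). Egr3 rose from 1.52, 1.37 and 1.27 to 2.50, 2.47 and 2.27 (1.03, SE 0.10, adjusted p = 0.00173), and Egr1, a zinc-finger factor induced by ERK, from 4.22, 4.01 and 3.84 to 4.89, 4.89 and 4.71 (0.81, SE 0.09, adjusted p = 0.00379). The antiproliferative gene Btg2 (0.76) and Fos (0.67) rose too, Fos not without pair 2 (adjusted p = 0.0673). In T/S/Z, Egr3 and Egr1 lay -0.02 and 0.04 from DMSO, differences that did not pass the test. Without pair 1 or without pair 2, 3 of the falls passed. Among 18 feedback regulators of MAP kinases, the phosphatases Dusp7 (-1.01) and Dusp5 (-0.69) and the receptor-signalling inhibitor Spry2 (-0.60) fell and 0 rose, beside the same shares. Without pair 2, 1 of these 3 passed.

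Among interferon-stimulated genes, all 30 tested had estimates below 0 (45.2% over all genes), 13 of them past the threshold (1.59% of all genes), with a median of -0.53. Rsad2, the antiviral enzyme viperin, read 6.34, 6.16 and 6.13 in T/S/Z and 5.41, 5.23 and 5.11 in T/S/Z/N and fell by 0.96 (SE 0.08, adjusted p = 0.00107). Mx1, an antiviral GTPase, fell by 0.94 and the ubiquitin-like Isg15 by 0.86. Further falls were Oasl1 (-0.82), Isg20 (-0.80), Usp18 (-0.74), Ifit1 (-0.73), Mx2 (-0.72), Ifit3b (-0.72), Irf7 (-0.70), Ifit3 (-0.69), Cmpk2 (-0.69) and Parp14 (-0.64). Ifit3 and Ifit3b are near-identical copies whose reads the quantification could have split. Each of these genes stayed above DMSO in T/S/Z/N; Rsad2, for instance, averaged 1.46 in DMSO. Effects of Nec-1s alone were also negative for several of them, -0.50 for Ifit1 and -0.49 for Usp18, and did not pass the test. Over the 30 genes, the median effect of Nec-1s alone was -0.21, against 0.0007 over all genes. Of the related lists, 0 of 14 interferon-inducible GTPases and 0 of 20 genes of MHC class I presentation passed the test in limma, also with any 1 pair left out for the GTPases, and with 1 fall without pair 1 and 3 without pair 3 for MHC class I. Their medians were -0.21 and -0.28, and they held 14 and 18 genes that were higher in T/S/Z than in DMSO and the same numbers in T/S/Z/N. Whether the lists differed from each other was not tested.

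Of 24 genes in the necrosome and caspase-8 complex list, 1 rose and 1 fell, beside 1.51% and 1.59% of all genes tested. Tnfrsf1b, the second TNF receptor, fell by 0.95 (SE 0.09, adjusted p = 0.00188), whereas Tnfrsf1a, the receptor that recruits RIPK1, differed by -0.18. Casp8 (0.01), Fadd (-0.02) and Cflar (-0.26) did not pass. In the BCL-2 family, 1 of 16 rose, the BH3-only gene Pmaip1 (0.74), and 0 fell.

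**Figure D4:**
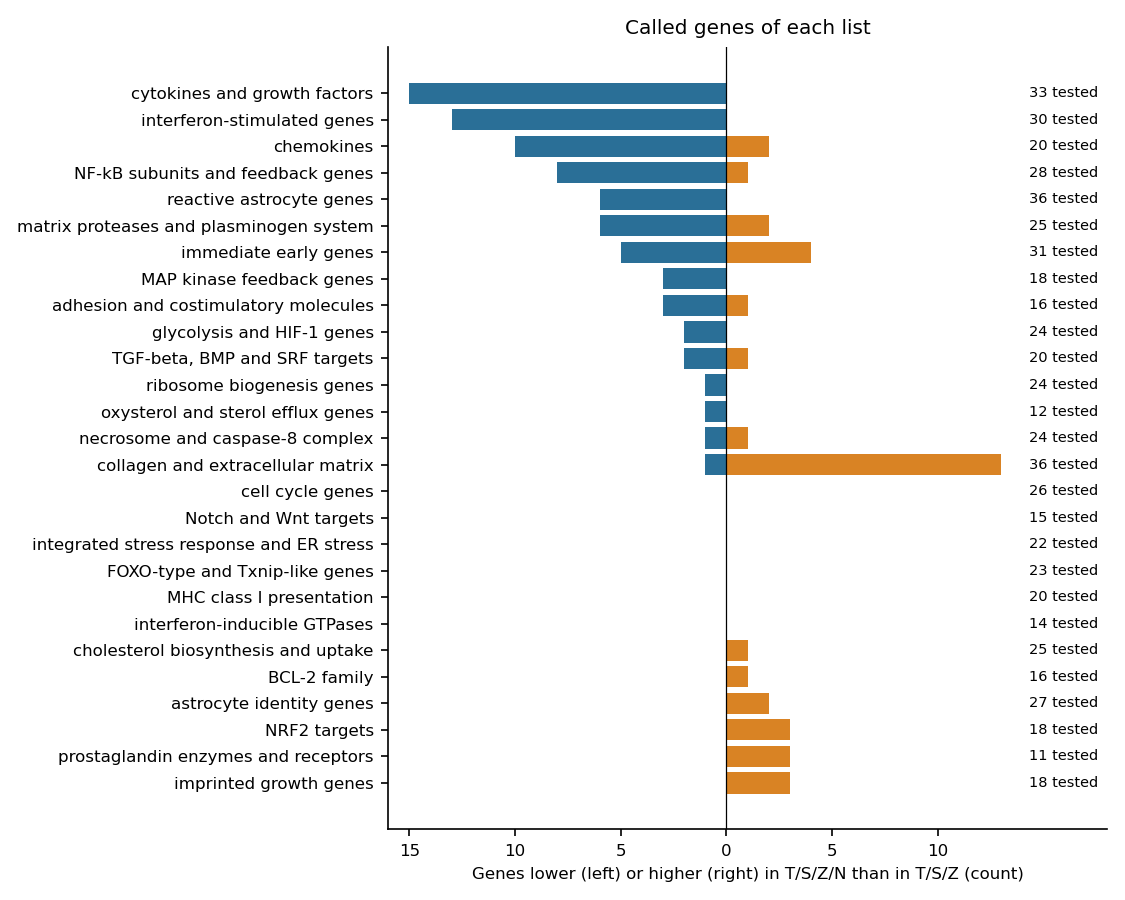
Number of genes of each of 27 lists that were lower (blue, to the left of 0) or higher (orange, to the right) in T/S/Z/N than in T/S/Z, with the number tested at the right edge. Cytokines and growth factors (15 of 33) and interferon-stimulated genes (13 of 30) hold the longest bars to the left, and collagen and extracellular matrix (13 of 36) the longest to the right.

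Of the 15 largest rises, 5 were of extracellular matrix genes and 2 of imprinted growth genes. By call, 13 of the 15 genes were lower in T/S/Z than in DMSO, beside 8.99% of all genes. Both comparisons use the T/S/Z libraries, so low T/S/Z levels favour both calls and this overlap is not a result. Col3a1 (ENSMUSG00000026043, chr1:45311538-45349706), a fibrillar collagen, read 7.67, 7.88 and 7.87 in DMSO, 4.92, 4.86 and 5.05 in T/S/Z and 7.33, 7.28 and 7.39 in T/S/Z/N. It rose by 2.39 (SE 0.08, adjusted p = 4e-05), from 29.8 ± 2.10 to 160 ± 6.51 FPKM (SD, n = 3). Dcn (ENSMUSG00000019929, chr10:97479609-97518143), the proteoglycan decorin, went from 4.98, 5.26 and 5.36 to 7.42, 7.49 and 7.47, above its DMSO libraries of 7.29, 7.25 and 7.32, and rose by 2.26 (SE 0.09, adjusted p = 6.21e-05). Col1a2 (ENSMUSG00000029661, chr6:4504814-4541544) read 4.37, 4.17 and 4.15 and 6.19, 6.18 and 6.12 and rose by 1.93 (SE 0.08, adjusted p = 7.01e-05). Of the 36 matrix genes tested, 17 were lower in T/S/Z than in DMSO (8.99% of all genes), and with Nec-1s 13 rose (1.51% of all genes) and 1 fell (1.59%; median 0.42). The others that rose were Mgp (1.78), Lum (1.76), Lox (1.52), Col6a3 (1.28), Col1a1 (1.15), Nid1 (1.08), Col4a2 (0.97), Postn (0.77), Col4a1 (0.74) and Fbln1 (0.73), which include a calcification inhibitor (Mgp), a collagen crosslinking enzyme (Lox) and basement membrane components (Nid1, Col4a1 and Col4a2). Tnc, the glycoprotein tenascin-C, fell by 0.74. Fn1 (-0.26), Sparc (0.02) and Col6a1 (-0.09) did not pass.

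Several of these genes are also markers of fibroblasts and mural cells. Of 11 such markers tested, 7 rose, against 1.51% of all genes: the 5 matrix genes Col1a1, Col1a2, Col3a1, Dcn and Lum, and Vtn (0.88) and Pdgfrb (0.75), whereas Acta2 (-0.18) and Tagln (-0.11) did not pass. The 12 markers in the table summed to 1839 to 2052 FPKM in DMSO, 1204 to 1391 in T/S/Z and 1498 to 1611 in T/S/Z/N. Acta2 and Tagln carried most of these sums, and without them the other 10 summed to 625 to 640 FPKM in DMSO, 117 to 130 in T/S/Z and 499 to 502 in T/S/Z/N. Cdh5, an endothelial cadherin, rose by 1.37, 1 of 5 endothelial markers tested, beside the same 1.51%. The 6 endothelial markers in the table summed to a mean of 39.7 FPKM in DMSO, 18.4 FPKM in T/S/Z and 27.6 FPKM in T/S/Z/N. In bulk RNA, fewer cells of a type and less RNA per cell cannot be told apart, and the part of these cells in the matrix result was not tested. Of the markers of the oligodendrocyte lineage (9 tested), ependyma and choroid plexus (6) and neurons (4), 0 passed the test in limma with all pairs or with any 1 pair left out.

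Among imprinted growth genes, 3 of 18 rose, beside 1.51% of all genes, and 0 fell. H19 (ENSMUSG00000000031, chr7:142575529-142578143), a long non-coding RNA, read 7.17, 7.05 and 6.97 in DMSO, 4.17, 4.13 and 4.03 in T/S/Z and 6.44, 6.50 and 6.20 in T/S/Z/N and rose by 2.27 (SE 0.08, adjusted p = 4e-05). Igf2, the growth factor gene beside it on chromosome 7, read 4.21, 3.92 and 3.98 and 5.98, 5.93 and 5.82 and rose by 1.87 (SE 0.09, adjusted p = 9.39e-05). Grb10, an adaptor that restrains insulin signalling, rose by 1.05. Igf2r (0.05), Dlk1 (-0.39) and Meg3 (-0.27) did not pass.

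Further rises outside the lists included Aldh1a2, which makes retinoic acid, from 2.20, 2.14 and 2.02 to 4.01, 4.10 and 3.98 (1.91, SE 0.09, adjusted p = 0.000113), and Apod, a lipid-carrying apolipoprotein, from 5.41, 5.42 and 5.60 to 7.43, 7.36 and 7.26 (1.87, SE 0.10, adjusted p = 0.000148). Fibin (1.85), the proteoglycan Epyc (1.83) and the tight-junction gene Cldn11 (1.78) rose in all 3 pairs. Ppp1ccb (1.85) is annotated as a transcribed processed pseudogene, a near-identical copy of a phosphatase gene, and its level is uncertain.

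Matrix proteases and the plasminogen system gave 2 rises and 6 falls among 25 genes, beside 1.51% and 1.59% of all genes. Mmp9, gelatinase B, read 0.76, 0.38 and 0.69 in DMSO, 2.00, 1.73 and 1.62 in T/S/Z and 3.66, 3.53 and 3.60 in T/S/Z/N, and rose by 1.81 (SE 0.10, adjusted p = 0.000208). Mmp2, gelatinase A, rose by 1.53 to 5.16, beside a DMSO mean of 5.12. The falls included the urokinase receptor Plaur (-0.62) and the metalloproteases Adamts9 (-1.04), Mmp12 (-0.75), Adamts1 (-0.70) and Adamts5 (-0.64). Without pair 2, 4 of the 6 falls passed.

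Of 27 astrocyte identity genes, 2 rose, beside 1.51% of all genes: Id4 (0.73), an inhibitor of bHLH factors, and Dio2 (0.67), which activates thyroid hormone. Slc1a2, the glutamate transporter GLT-1, averaged 4.21 ± 0.14 in T/S/Z and 4.29 ± 0.16 in T/S/Z/N, and the water channel Aqp4 8.84 ± 0.09 and 9.13 ± 0.03, with adjusted p-values of 0.665 and 0.0911. Of 36 reactive astrocyte genes, 6 fell, against 1.59% of all genes, and 0 rose (median -0.20). Lcn2, the iron-trafficking protein lipocalin-2, fell most, from 8.37, 8.81 and 8.39 to 7.10, 7.11 and 7.21 (-1.38, SE 0.12, adjusted p = 0.0011), and remained well above its DMSO mean of 3.46. The others were Sphk1 (-1.10), Cd14 (-0.96), Tgm1 (-0.80), Ptx3 (-0.75) and Hspb1 (-0.63). C3, the complement gene often used to mark reactive astrocytes, averaged 8.07 ± 0.07 and 8.09 ± 0.05, a difference of 0.02. The falls numbered 4 without pair 1, 3 without pair 2 and 9 without pair 3.

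In metabolic groups, the counts stand beside 1.51% of all genes higher and 1.59% lower. Ch25h, which makes the oxysterol 25-hydroxycholesterol, read 5.22, 5.19 and 5.08 and 3.64, 3.72 and 3.98 and fell by 1.38 (SE 0.11, adjusted p = 0.000896), the only 1 of 12 oxysterol and sterol efflux genes. Of 25 genes of cholesterol synthesis and uptake, 1 rose, the sterol carrier Stard4 (0.66), and 21 of 25 estimates were above 0, against 54.8% of all genes (median 0.20) and Nec-1s alone gave a median of 0.20 in the same list. Prostaglandin genes gave 3 rises of 11 and 0 falls: Ptgds, prostaglandin D synthase (1.37, SE 0.13, adjusted p = 0.0018), Ptges, the inducible prostaglandin E synthase (0.85), and Alox5ap, an activator of leukotriene synthesis (0.60). Alox5ap did not pass without the block (adjusted p = 0.0525), with quantile normalization (adjusted p = 0.0541) or without pair 1 (adjusted p = 0.151) and missed the fold-change minimum without pair 3 (0.53). Of 18 NRF2 targets, 3 rose: the quinone reductase Nqo1 (1.32, SE 0.09, adjusted p = 0.000575), the cystine transporter Slc7a11 (0.91) and the peroxidase Prdx1 (0.63), which did not pass without pair 1 or pair 2 (adjusted p = 0.0527 and 0.105), while Hmox1 (-0.30) and Gclm (0.39) did not pass. Of 24 glycolysis and HIF-1 genes, Hk2 (-0.59) and Adm (-0.65) fell, and neither passed without pair 1 or pair 2. Hk2 also missed the fold-change minimum without pair 3 (-0.56) and with quantile normalization (-0.57). Of 24 ribosome biogenesis genes, Rrp9 fell (-0.72), while 23 of 24 estimates were below 0, against 45.2% of all genes (median -0.26).

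The adhesion and TGF-beta counts that follow stand beside 1.51% of all genes higher and 1.59% lower. Among 16 adhesion and costimulatory molecules, the endothelial selectin Sele (-0.92), the checkpoint ligand Cd274 (-0.78) and the integrin Itga5 (-0.78) fell, and Cd80, a ligand of CD28, rose from 2.36, 2.24 and 2.45 to 3.66, 3.74 and 3.69 (1.35, SE 0.10, adjusted p = 0.000669). Icam1 (-0.05) and Vcam1 (-0.10) did not pass. Of 20 TGF-beta, BMP and SRF targets, Tgfbi rose (1.00) and 2 fell, among them Smad7 (-0.61). No gene passed in the lists of FOXO-type (23 tested), integrated stress response (22), Notch and Wnt (15) and cell cycle genes (26), whose medians were 0.30, 0.11, -0.02 and 0.01. The FOXO-type list gave 1 rise without pair 1 and the stress list 1 fall without pair 3. The 27 lists held 114 of the 429 changed genes. In the small groups single pairs decided counts: without pair 1 or pair 2, 1 astrocyte identity gene rose and 0 ribosome biogenesis genes fell, and 1 of the 2 TGF-beta, BMP and SRF falls passed without pair 2. Smad7 was the fall that did not pass there (-0.50, adjusted p = 0.176). Besides the genes for which this is said, Csrnp1, Gadd45b, Spry2, Oasl1, Plaur, Dio2, Hspb1 and Tgm1 did not pass without pair 1 or without pair 2, and Dusp5, Isg15, Adamts5 and Ptx3 did not pass without pair 2. These names are not a full list of lost calls. Falls of cytokines and growth factors went from 15 to 13 without pair 1 and to 11 without pair 2. Interferon-stimulated falls went from 13 to 10 and 11 in the same order, and matrix rises from 13 to 10 without pair 2.

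Nec-1s on unstimulated astrocytes changed little. Against DMSO, 2 genes (0.0144%) passed, Rps27 (-0.92) and the processed pseudogene Gm10297 (-2.38), both lower, and 790 genes had an unadjusted p under 0.05. The count was 0 without the block, and 16, 0 and 6 without pairs 1, 2 and 3. In T/S/Z/N against T/S/Z their adjusted p-values were 0.523 and 0.783, and both were named after their values were seen. The 220 genes that fell in T/S/Z/N differed by a median of 0.0043 between Nec-1s and DMSO, and the 209 that rose by 0.021. With Nec-1s alone, 3 of the former (1.36%) and 3 of the latter (1.44%) moved by more than 1.5-fold, against 0.405% of all genes tested.

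A model over all 12 libraries tested if the effect of Nec-1s with T/S/Z differed from its effect without. This interaction called 466 genes (3.37%), 243 higher (1.76%) and 223 lower (1.61%). Of the 220 genes that fell, 158 also had a lower-called interaction, of the 209 that rose, 155 had a higher-called one, and 0 had one of opposite sign. All 15 of the largest falls and all 15 of the largest rises were among them. This test shares its T/S/Z and T/S/Z/N libraries with the comparison above. The number called was 90 without pair 1 and 99 without pair 2.

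**Figure D5:**
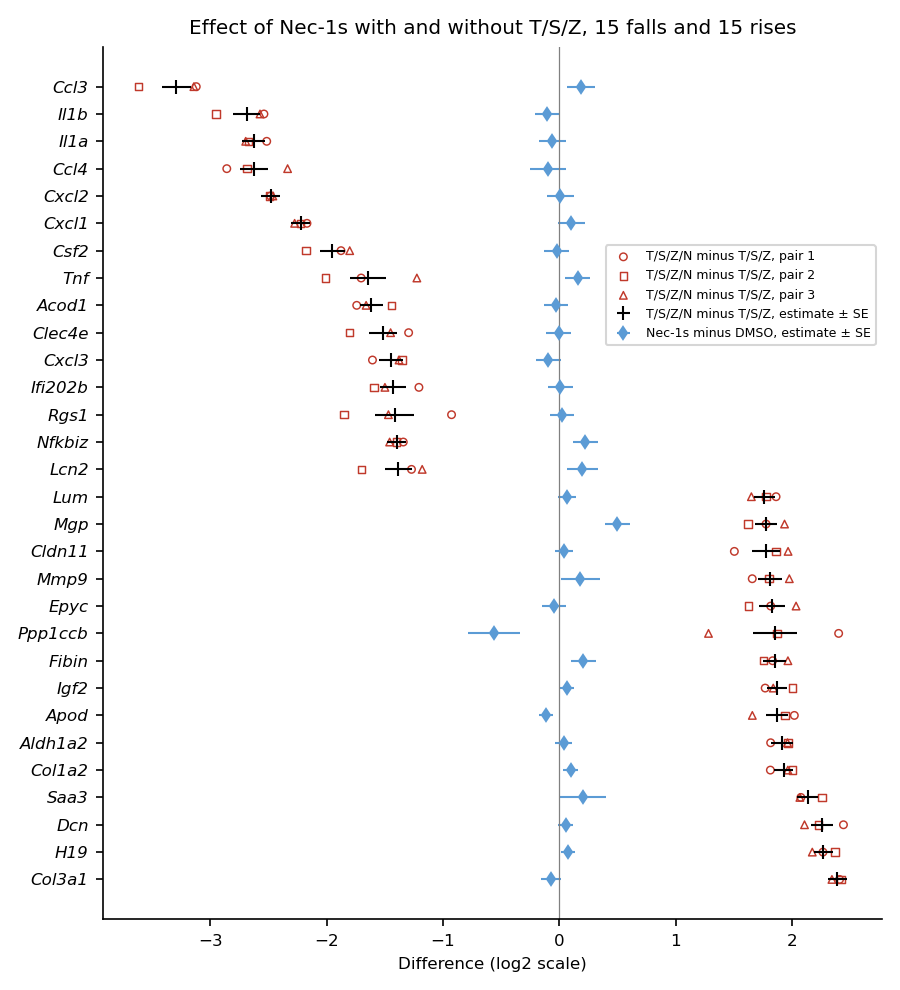
Effect of Nec-1s on the log2 scale (x axis) for the 15 genes with the largest falls and the 15 with the largest rises (y axis). Open red symbols are the 3 pairs of T/S/Z/N and T/S/Z, black marks their estimate ± SE, and blue diamonds the estimate ± SE of Nec-1s against DMSO. In all 30 genes the 3 pairs lie on 1 side of 0, and 28 of the blue diamonds lie at most 0.22 from 0, with Ppp1ccb at -0.56 and Mgp at 0.50 outside.

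Some genes differed in T/S/Z/N from both T/S/Z and DMSO. By the rule that a gene rose against T/S/Z and against DMSO, and did not pass in T/S/Z against DMSO, there were 16, and 4 that fell by the same rule. The 5 largest rises were Ccl12 (from 1.45 in DMSO and 1.84 in T/S/Z to 3.36 in T/S/Z/N), Serpinb6b (from 1.40 in DMSO and 1.01 in T/S/Z to 2.33 in T/S/Z/N), Serpinb9 (from 3.63 in DMSO and 3.31 in T/S/Z to 4.55 in T/S/Z/N), Ccl8 (from 1.04 in DMSO and 1.48 in T/S/Z to 2.60 in T/S/Z/N) and Rgs4 (from 2.43 in DMSO and 2.83 in T/S/Z to 3.92 in T/S/Z/N). Serpinb9 and Serpinb6b encode intracellular serpins, and Serpinb9 is an inhibitor of granzyme B. Serpinb9 read 3.61, 3.60 and 3.69 in DMSO, 3.34, 3.23 and 3.35 in T/S/Z and 4.47, 4.60 and 4.56 in T/S/Z/N. The 4 falls were Flnc (from 4.77 in DMSO and 5.13 in T/S/Z to 4.15 in T/S/Z/N), Lmcd1 (from 1.88 in DMSO and 1.68 in T/S/Z to 0.94 in T/S/Z/N), Lime1 (from 2.87 in DMSO and 2.82 in T/S/Z to 2.22 in T/S/Z/N) and Lrp1 (from 4.94 in DMSO and 4.91 in T/S/Z to 4.31 in T/S/Z/N). Serpinb6b did not pass against DMSO without pair 2 (0.83, adjusted p = 0.0541). Ccl8 passed in T/S/Z against DMSO without pair 3 (0.69, adjusted p = 0.0204) and then left the set. Calls of the 4 falls depended on the processing. Against DMSO, Flnc (-0.56) and Lrp1 (-0.57) missed the fold-change minimum with median centring, Lime1 (-0.57) with quantile normalization, and Flnc (-0.58) without pair 1, while Lime1 and Lrp1 did not pass without pair 2 (adjusted p = 0.0839 and 0.0527). Against T/S/Z, Lrp1 did not pass without the block (adjusted p = 0.056), and Lmcd1, Lime1 and Lrp1 did not pass without pair 2 (adjusted p = 0.0613, 0.0736 and 0.104). Lime1 also did not pass there without pair 1 (adjusted p = 0.111), and Lrp1 missed the fold-change minimum without pair 3 (-0.48). Flnc encodes the actin crosslinker filamin C and Lrp1 an endocytic receptor. Saa3, an acute-phase apolipoprotein, is not in this set because T/S/Z raised it too: it read 0.76, 0.26 and 0.94 in DMSO, 2.55, 2.53 and 2.74 in T/S/Z and 4.62, 4.79 and 4.81 in T/S/Z/N, and rose by 2.13 with Nec-1s (SE 0.09, adjusted p = 6.87e-05).

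Since microglia can make Ccl3, Ccl4, Tnf and IL-1, microglial markers were set beside these falls. Of 17 markers tested, 4 rose with Nec-1s, Fcrls (0.79), Cx3cr1 (0.70), Ctss (0.63) and Tmem119 (0.61), and 0 fell, beside 1.51% and 1.59% of all genes. Estimates were above 0 for 16 of 17, against 54.8% of all genes. The exception was Cd68, which averaged 12.3 FPKM in T/S/Z and 8.34 in T/S/Z/N and did not pass. The 18 markers in the table summed to 169 to 182 FPKM in DMSO, 109 to 119 in T/S/Z and 153 to 158 in T/S/Z/N. Their sum was higher with Nec-1s, and none of the 18 was at 0. Marker sums do not show how much Ccl3 or Il1b each microglial cell made. In the CD11b-selected microglia of the series, Ccl3 averaged 4266 FPKM in T/S/Z and 107 in T/S/Z/N, and Il1b 349 and 78.6. Without pair 2, 1 of the 4 rises passed.

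The levels were also set beside those of the CD11b-selected microglia of the series after T/S/Z. The microglial table was normalized separately, with replicate means that differed by at most 6.67e-05 and with 10728 values below 0 (taken as 0 FPKM), so no test was made across tables. The 18 microglial markers stood in T/S/Z astrocytes at a median of 0.519% of their microglial level (0.177% to 18.7%). P2ry12 set the upper end of that range, and the next marker, Tmem119, stood at 4.59%. Among the 15 largest falls, Ccl4 stood at 0.418%, Ccl3 at 0.448%, Clec4e at 0.868%, Tnf at 0.897% and Rgs1 at 2.16%, and Acod1 (3.54%) and Cxcl3 (3.59%) also lay below Tmem119. Ccl3, for example, averaged 4266 ± 655 FPKM in microglia (SD, n = 4). Il1b (5.50%), Cxcl2 (6.13%) and Il1a (14.1%) lay above every marker but P2ry12. Nfkbiz stood at 92.5%, Cxcl1 at 374%, Csf2 at 629% and Lcn2 at 4815%, above all 18 markers. Ifi202b was near 0 in microglia, at 0.0279 to 0.277 FPKM, and at 3.44 to 3.92 in astrocytes, so no percentage is given. The part of residual microglia in these falls was not tested.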

How the data were processed

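Polyadenylated RNA of cultured mouse astrocytes was sequenced as paired reads. Read processing by the authors ran in OmicSoft Array Studio, and the deposited values are log2(FPKM + 1), scaled to a common 75th percentile. The aligner settings are not given in the sources used here. The annotation has GRCm38 coordinates, and starts were equal to GENCODE M21 for 99.9% of 14546 matched genes.

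Astrocyte genes with a log2 value of at least 1 in 3 of 12 libraries entered limma (version 3.58.1, R 4.3.3; lmFit and eBayes with a trend), in which replicate number was a block, following the paired test of the study's methods. Each comparison used its own libraries, and the interaction used all 12. Tests were 2-sided. The procedure was tested on simulated data. Named genes were the 15 largest rises and falls with the same sign in 3 pairs, up to 6 passing members of each list in each direction with some fixed members, the 5 largest interactions each way, and the 5 largest of those beyond both T/S/Z and DMSO. Predicted, ribosomal and mitochondrial genes were left out of the first. Further list members are named to account for counts and were chosen after their values were seen. Members and lists were chosen with earlier results of these data known. The annotation marks 56.2% of tested and 44.1% of changed genes as confounded, a term it does not define. Alternatives were no block, other variance settings, 5 added before the log, other filters, 2 other scalings, a fold change of 2, and leaving out each pair. Promoter letters came from RefSeq (GRCm38.p6). The published comparisons were not used. Some genes counted in the lists are not reported here by name.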

Additional observations from a re-analysis of the deposited data

Results flagged for a closer look

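The effect of Nec-1s differed between stimulated and unstimulated astrocytes, by a test of the difference itself, for 466 genes. The 5 most negative differences (effect with T/S/Z minus effect without, log2 scale, limma) were those of Ccl3 (-3.48, adjusted p = 1.49e-06), Il1b (-2.58, adjusted p = 1.6e-06), Il1a (-2.57, adjusted p = 1.6e-06), Ccl4 (-2.53, adjusted p = 9.13e-05) and Cxcl2 (-2.49, adjusted p = 1.49e-06). The 5 most positive were those of Col3a1 (2.46, adjusted p = 8.36e-07), Ppp1ccb (2.41, adjusted p = 0.00237), Dcn (2.21, adjusted p = 1.49e-06), H19 (2.20, adjusted p = 8.36e-07) and Apod (1.99, adjusted p = 2.19e-06). Ppp1ccb is a near-identical copy of another gene, and its effect of Nec-1s alone was -0.56. Its interaction did not pass without pair 1 (1.86, adjusted p = 0.0617, limma). In microglia, 1 of 4 T/S/Z libraries stood apart for Il1a, at 84.1 FPKM against 50.5 to 54.3 in the others, so its percentage across tables rests partly on that library. Chance flags about 1 in 20 groups of 4. The same check was made for every gene and marker set beside microglia, and Il1a alone was flagged, so this flag can arise by chance.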

How the results depend on the processing

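Counts of called genes moved with the fold scale, the variance model, the level filter and the pair left out. The main counts were 429 (209 higher and 220 lower) for T/S/Z/N against T/S/Z, 2130 and 1257 for T/S/Z and T/S/Z/N against DMSO, 2 for Nec-1s against DMSO and 466 for the interaction. With 5 added before the log they were 180 (74 higher and 106 lower) for T/S/Z/N against T/S/Z, 985 and 542 for T/S/Z and T/S/Z/N against DMSO, 0 for Nec-1s against DMSO and 196 for the interaction; restricted to genes averaging 3 or more on the log2 scale, which tests fewer genes, 225 (102 higher and 123 lower) for T/S/Z/N against T/S/Z, 1094 and 639 for T/S/Z and T/S/Z/N against DMSO, 10 for Nec-1s against DMSO and 280 for the interaction; with a fold-change minimum of 2, 107 (62 higher and 45 lower) for T/S/Z/N against T/S/Z, 766 and 386 for T/S/Z and T/S/Z/N against DMSO, 1 for Nec-1s against DMSO and 111 for the interaction; and with each gene's own variance (2 residual degrees of freedom in the paired comparisons), 3 (1 higher and 2 lower) for T/S/Z/N against T/S/Z, 281 and 50 for T/S/Z and T/S/Z/N against DMSO, 0 for Nec-1s against DMSO and 200 for the interaction. The restricted test covered 8526 genes. Leaving out 1 pair gave 274 to 761 (144 to 330 higher and 130 to 431 lower) for T/S/Z/N against T/S/Z, 1675 to 2420 and 1026 to 1341 for T/S/Z and T/S/Z/N against DMSO, 0 to 16 for Nec-1s against DMSO and 90 to 545 for the interaction. The cause was not tested. For Nec-1s against DMSO, 0 genes passed without a trend and 0 without a filter. Without the replicate block the counts were 419 (202 higher and 217 lower) for T/S/Z/N against T/S/Z, 2097 and 1264 for T/S/Z and T/S/Z/N against DMSO, 0 for Nec-1s against DMSO and 444 for the interaction. Deviations of same-numbered T/S/Z and T/S/Z/N libraries correlated at -0.02, 0.08 and -0.01, and over all 4 groups 7 of 12 libraries had a same-numbered library as their best partner in another group, so not every sample followed its own number. Some best partners share a number by chance, and whether the 7 exceed that was not tested. Without the block, Alox5ap (adjusted p = 0.0525) and Lrp1 (adjusted p = 0.056) of the 108 below lost their calls. Fits without a trend, without a filter, with quantile normalization, with median centring or over all 12 libraries kept every count of T/S/Z/N against T/S/Z within 1.5 times.

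Of 108 named genes that passed in T/S/Z/N against T/S/Z, 84 passed with 5 added, 57 at a fold change of 2, 1 with each gene's own variance, and 93, 86 and 105 without pairs 1, 2 and 3. None of the 108 reversed under any alternative run. Signs reversed for differences near 0 that had not passed. With 1 pair left out, Slc1a2 ranged from -0.0026 to 0.23 (below 0 without pair 2) and C3 from -0.036 to 0.061 (below 0 without pair 3) in T/S/Z/N against T/S/Z. Lum in T/S/Z/N against DMSO ranged from -0.13 to 0.065 (above 0 without pair 2 or pair 3), and was 0.0081 with quantile normalization and 0.047 with median centring. In T/S/Z against DMSO, Lime1 ranged from -0.15 to 0.14 (above 0 without pair 2), with 0.064 under quantile normalization and 0.019 under median centring, and Lrp1 from -0.18 to 0.10 (above 0 without pair 2), with 0.037 under median centring. Depth was not settled, so no floor was computed for low genes.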

Other observations

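Beyond the named genes, the other 11 genes that rose above both T/S/Z and DMSO, without passing in T/S/Z against DMSO, included the scavenger receptor Msr1 (from 1.89 in DMSO and 2.04 in T/S/Z to 2.72 in T/S/Z/N) and the lysosomal protease cathepsin C, Ctsc (5.22, 5.73 and 6.49). They also held 2 secreted growth factors, Angpt1, a ligand of TIE2 (3.92, 3.62 and 4.53), and Fgf7 (1.24, 1.41 and 2.06), with the protease inhibitor Tfpi2 (1.98, 2.08 and 2.89) and the efflux pump Abcb1a (1.54, 1.42 and 2.29). The other 5 were Egr3, Slc7a11, Egr1, Btg2 and Stard4, described with their lists. These 6 further genes were named after their values were seen.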
